A study of Homo sapiens with 4 samples.

Results

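The genes of the proteasome, the protease that degrades ubiquitin-tagged proteins, were taken from a table of BRCA2 chromatin sites by symbol, as every row whose symbol opens with PSM, a letter from A to G and a number. The rule took 46 rows with 36 symbols and 43 sites, out of 23317 rows with 15634 symbols and 15131 sites in the whole table. Of the 36 symbols, 28 were coding genes of the proteasome itself (33 sites), 6 were pseudogenes (8 sites), and the others were the antisense RNA PSMD5-AS1 and PSMC3IP, whose product acts in recombination and is no proteasome subunit. The reference gene table (RefSeq, GRCh38.p14, used for names) holds 48 coding genes of the families PSMA to PSMG, so 20 of them had no site in the table.

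The groups were 2 BRCA2 ChIP libraries, made with an antibody to BRCA2, and 2 libraries of input chromatin, which is the same material without precipitation. Both came from hTert-HME1 cells, a single human mammary epithelial line immortalised with telomerase, harvested in log-phase growth and fixed with formaldehyde. All concentrations, log2 folds and FDR values below come from the authors' deposited table, which compares ChIP with input by DiffBind. It gives the mean log2 concentration of normalized reads of each group, with no value per library, and lists sites up to an FDR of 0.05. The spread between replicates and the depth of the libraries are therefore unknown here, and the labels do not say whether replicates were separate cultures. Sites are on hg19 and are nearly all 500 bp wide. No control antibody was analysed here, so at each site BRCA2 binding cannot be told apart from non-specific precipitation, and no expression was measured against which to check the cell type.

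The proteasome has a barrel-shaped core particle, with rings of alpha subunits (PSMA genes) at its ends and rings of beta subunits (PSMB genes), some of which cut the substrate, between them. A regulatory particle caps the core: its ring of ATPases (PSMC genes) unfolds the substrate, and its other subunits (PSMD genes) bind and remove ubiquitin. PSME genes encode other activators, PSMF1 an inhibitor and PSMG genes chaperones that assemble the core. A small lid subunit, SEM1 (older symbols SHFM1 and DSS1), is also a direct partner of BRCA2, which is a protein of homologous recombination.

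Promoter sequences are shown for the genes with the largest log2 folds at their starts: PSMA1 for the core, PSMC3 and PSMC4 for the ATPases, PSMD7 and PSMD6 for the lid, and PSMG1 and PSME2 for the assembly chaperones and activators. PSMA7 had the largest fold of all and is described by its values. Each line holds the 250 bases before the RefSeq start, 5′ to 3′ in the direction of the gene. Capitals mark matches, on either strand, to the CCAAT box (CCAAT), the GC box of Sp1 (GGGCGG), the core of ETS factor motifs (CGGAAG), the core of the antioxidant response element (TGACNNNGC), which NFE2L1 and NFE2L2 recognise, and a part of the motif of the factor NRF1 (GCGCNNGC). Matches may overlap, as they do in PSMG1, and then run together.
PSMA1, RefSeq GRCh38.p14, chr11:14520387-14520636, reverse strand: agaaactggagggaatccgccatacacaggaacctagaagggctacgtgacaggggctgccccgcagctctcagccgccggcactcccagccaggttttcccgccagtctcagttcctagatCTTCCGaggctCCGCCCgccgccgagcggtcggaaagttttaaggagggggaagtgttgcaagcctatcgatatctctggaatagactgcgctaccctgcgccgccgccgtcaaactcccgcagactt
PSMC3, RefSeq GRCh38.p14, chr11:47426440-47426689, reverse strand: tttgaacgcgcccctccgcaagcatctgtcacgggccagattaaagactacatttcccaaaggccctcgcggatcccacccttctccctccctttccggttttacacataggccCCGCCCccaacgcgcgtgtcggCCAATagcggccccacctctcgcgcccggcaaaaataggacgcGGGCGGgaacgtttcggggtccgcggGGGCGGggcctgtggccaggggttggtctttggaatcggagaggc
PSMC4, RefSeq GRCh38.p14, chr19:39970915-39971164, forward strand: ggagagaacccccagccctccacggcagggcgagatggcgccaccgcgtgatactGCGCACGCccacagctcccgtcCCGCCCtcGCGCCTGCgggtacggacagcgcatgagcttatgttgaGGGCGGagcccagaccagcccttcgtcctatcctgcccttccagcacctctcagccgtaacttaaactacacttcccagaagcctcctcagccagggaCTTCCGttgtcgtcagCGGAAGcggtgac
PSMD7, RefSeq GRCh38.p14, chr16:74296564-74296813, forward strand: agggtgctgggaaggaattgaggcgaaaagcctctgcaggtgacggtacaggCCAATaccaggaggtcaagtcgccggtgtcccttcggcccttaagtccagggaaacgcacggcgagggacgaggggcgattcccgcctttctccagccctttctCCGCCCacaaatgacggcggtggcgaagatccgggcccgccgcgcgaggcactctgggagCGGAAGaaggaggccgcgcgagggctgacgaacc
PSMD6, RefSeq GRCh38.p14, chr3:64023495-64023744, reverse strand: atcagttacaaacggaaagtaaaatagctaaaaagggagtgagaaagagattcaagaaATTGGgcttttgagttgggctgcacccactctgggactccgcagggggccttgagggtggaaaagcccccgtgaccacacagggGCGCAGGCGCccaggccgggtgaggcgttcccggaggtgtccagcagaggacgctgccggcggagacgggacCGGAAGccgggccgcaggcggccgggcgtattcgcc
PSMG1, RefSeq GRCh38.p14, chr21:39183452-39183701, reverse strand: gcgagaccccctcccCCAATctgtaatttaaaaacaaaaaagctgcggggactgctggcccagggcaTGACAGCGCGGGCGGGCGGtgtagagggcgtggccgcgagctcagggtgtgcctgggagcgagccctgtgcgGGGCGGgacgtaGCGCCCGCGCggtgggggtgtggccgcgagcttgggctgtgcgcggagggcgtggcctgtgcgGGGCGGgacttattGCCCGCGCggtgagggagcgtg
PSME2, RefSeq GRCh38.p14, chr14:24146611-24146860, reverse strand: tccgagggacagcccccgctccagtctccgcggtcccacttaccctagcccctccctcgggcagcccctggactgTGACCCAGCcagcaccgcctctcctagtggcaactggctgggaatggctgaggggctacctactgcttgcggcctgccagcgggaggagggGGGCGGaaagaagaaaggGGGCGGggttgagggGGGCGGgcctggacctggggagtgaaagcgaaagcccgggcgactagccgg

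The ETS core was present in the 250 bases before the start of 11 of 15 proteasome genes that had a site at the start and an entry in the promoter table, and in 8 of 19 genes with no site. Over 15843 coding genes the share was 25.7%, and over all 35116 promoter entries 16.5%. PSMC4 held it at both 29 and 13 bases before the start, PSMD7 at 34, PSMD6 at 36 and PSMA1 at 128 bases before it. The printed stretches of PSMC3, PSMG1 and PSME2 held none. The antioxidant response element core was in 6 of the 15 (PSMA4, PSMD12, PSMD5, PSMD9, PSME2 and PSMG1) and in 5 of the 19, against 14.7% of coding genes and 10.9% of all entries. The GC box was in 11 of the 15 and 12 of the 19, against 62.1% of coding genes and 42.6% of all entries. The CCAAT box was in 7 of the 15 and 9 of the 19, against 40.2% and 32.0%, and the NRF1 motif part in 7 and 8, against 42.5% and 27.6%. Genes with several listed starts count as holding a motif when any of their entries does. The matches are letters in a window and were not tested for use by any factor. The median GC content of these windows was 62.4% in the genes with a site at the start, 61.6% in those with no site and 62.4% over all coding genes.

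BRCA2 sites were found at many proteasome genes, mostly at their starts, but at folds that were ordinary for the table. Of the 48 genes, 28 (58.3%) were paired with a site, against 44.2% of the 20056 protein-coding genes. A site over the start or within 1 kb of it by the listed distance was held by 20 (41.7%), against 23.4% of coding genes. Sites with a log2 fold of 1 or more were found at 22 (45.8%, against 34.7%), and sites with an FDR under 0.01 at 26 (54.2%, against 37.0%). Only PSMA7 and PSMG1, 2 of the 48 (4.17%), had a log2 fold of 2 or more, against 7.82% of coding genes. When each gene was given its strongest site, the median log2 fold was 1.325 in the 28 proteasome genes and 1.31 in the 8855 coding genes with a site. These shares and medians are descriptions, and neighbouring genes can share a site.

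**Figure D1:**
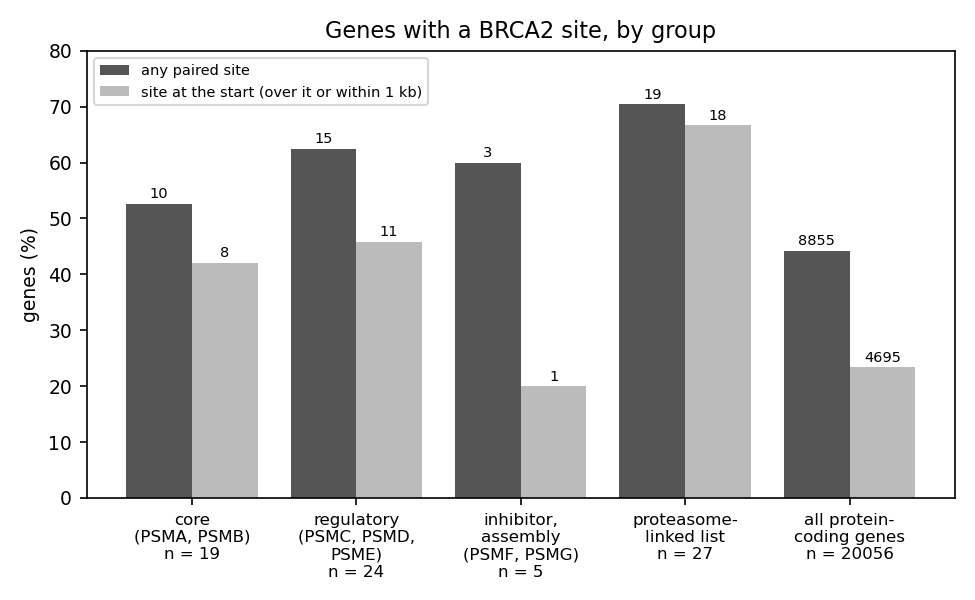
Share of genes (%) paired with any BRCA2 site (dark bars) and with a site over the start or within 1 kb of it (light bars), for the 3 classes of proteasome genes, a list of 27 proteasome-linked genes and all 20056 protein-coding genes. Numbers above the bars are genes. The core and regulatory bars for sites at the start, 42.1% and 45.8%, stand above the 23.4% of all coding genes, and the class of 5 inhibitor and assembly genes, at 20.0%, does not.

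The 33 sites of proteasome genes were above input, as were 15129 of the 15131 sites of the table. Their ChIP concentration had a median of 6.71 (lowest 6.16, highest 7.46) and their input concentration a median of 5.48 (lowest 3.30, highest 6.19), both on the log2 scale. Over all 15131 sites the medians were 6.60 in ChIP and 5.42 in input. The median log2 fold was 1.27 at the 33 sites and 1.15 over the table, and 29 of the 33 (87.9%) had an FDR under 0.01, against 74.0% of all sites. For the 22 sites at a proteasome gene's start the median was 1.19 (quartiles 0.99 and 1.45), and for the 5042 sites near any listed start it was 1.26 (quartiles 0.99 and 1.63). At the 11 sites of proteasome genes away from the start it was 1.36.

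**Figure D2:**
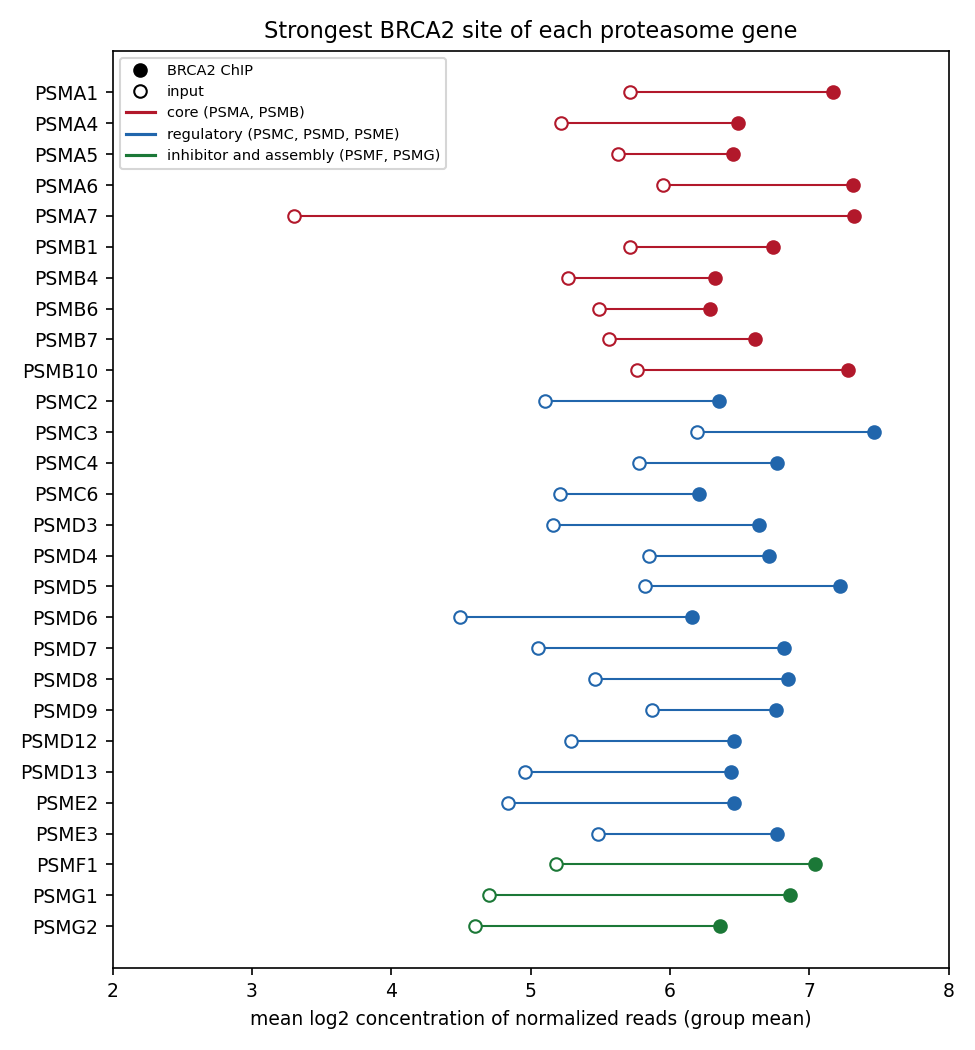
Mean log2 concentration of normalized reads in BRCA2 ChIP (filled) and input (open) at the strongest site of each of the 28 proteasome genes with a site, by class. Points are the authors' group means over 2 libraries each, with no error given. ChIP values lie between 6.16 (PSMD6) and 7.46 (PSMC3), and the long line of PSMA7 comes from its input value of 3.30, the lowest of the genes.

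Among the core genes, alpha ring subunits had sites at 5 of 7 standard members and beta ring subunits at 4 of 7. PSMA7, an alpha subunit, stood apart from the other members. Its site on chromosome 20 from 60718384 to 60718883 covered its start and had a concentration of 7.32 in ChIP and 3.30 in input, a log2 fold of 4.02, or 16.2-fold. The ChIP level lay within the range of the other members, while the input level was lower than at all but 25 of the 15131 sites (0.17%). Its FDR was 0.000549, the second largest among the 307 sites of the table with a log2 fold of at least 4, and the site ranked at 299 by fold. The same site covered the start of SS18L1, a chromatin regulator gene that runs the other way.

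The log2 folds of the other 4 alpha subunit genes with a site lay between 0.82 and 1.47. PSMA1 had 7.17 in ChIP and 5.71 in input (log2 fold 1.47, FDR 3.82e-06) at a site over the start of one of its 2 Ensembl records. The other record of PSMA1 starts far upstream, and the same site lies 123365 bp inside it. The RefSeq entry of PSMA1 begins 123276 bp inside the RefSeq gene, which would put the site from 410 bp before to 89 bp after that start if the outermost starts of both annotations are the same base, which was not checked. PSMA4 had 6.49 in ChIP and 5.22 in input (log2 fold 1.27, FDR 0.000473), and PSMA5 6.45 and 5.63 (0.82, FDR 0.0262), both over the start. PSMA5 was thus among the weakest sites of the table, with only 12.7% of sites having a smaller fold. PSMA6 had 7.31 in ChIP and 5.95 in input (1.36, FDR 1.83e-05) at a site 13571 bp inside the listed gene. RefSeq has 2 inner starts of PSMA6, 13759 and 13824 bp inside the gene, and the site would cover both, again on the same unchecked assumption. PSMA2 and PSMA3, and the testis-specific PSMA8, had no site.

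The strongest sites of the 5 beta subunit genes had a median log2 fold of 1.04, against 1.36 at the 5 alpha subunit genes, and the difference was not tested. The catalytic subunits are PSMB5, PSMB6 and PSMB7. PSMB5, whose product is the main target of proteasome inhibitor drugs, had no site. PSMB6 had 6.29 in ChIP and 5.49 in input (log2 fold 0.80, FDR 0.0265), the smallest fold among the 28 genes. PSMB7 had 6.61 and 5.56 (1.05, FDR 0.00361) at its start, and a weaker site, with 6.79 and 5.96 (0.83, FDR 0.0264), deep in the gene. PSMB4, a structural subunit, had 6.32 and 5.27 (1.04, FDR 0.00633) over its start.

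PSMB1, another structural beta subunit, had 2 sites on chromosome 6. That from 170862087 to 170862586 covered its start, with 6.43 in ChIP and 5.55 in input (log2 fold 0.88, FDR 0.0134). That from 170862980 to 170863479 lay 551 bp upstream and covered the start of TBP, the gene of the TATA-binding protein on the other strand, with 6.74 and 5.71 (1.03, FDR 0.00278). Both starts of this divergent pair thus had a site of their own.

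Of the immunoproteasome subunits, which replace the standard catalytic subunits after interferon, PSMB10 had a site and PSMB8 and PSMB9 had none. The PSMB10 site, with 7.28 in ChIP and 5.76 in input (log2 fold 1.52, FDR 4.03e-06), began 1173 bp inside the gene and lay within 1 kb of the start of CTC-479C5.12, an overlapping gene. PSMB2, PSMB3 and the thymus-specific PSMB11 also had no site.

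Regulatory genes had sites at 15 of 24, and core genes at 10 of 19. The median log2 fold was 1.27 at the 17 regulatory sites and 1.05 at the 13 core sites. All 17 regulatory sites had an FDR under 0.01, as did 9 of the 13 core sites. At starts alone the medians were 1.23 at 12 regulatory sites and 1.04 at 9 core sites. Input medians at the starts were 5.59 and 5.55, and ChIP medians 6.74 and 6.49. The ranges overlapped throughout, with log2 folds of 0.86 to 1.77 at regulatory sites and of 0.80 to 4.02 at core sites, and the difference was not tested.

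The largest folds among the regulatory genes were those of the lid subunits PSMD7 and PSMD6. Of the 8 lid genes named PSMD, 6 had a site and 5 had it at the start. PSMD7, a lid scaffold for the deubiquitinase, had 6.82 in ChIP and 5.05 in input (log2 fold 1.77, FDR 5.58e-07). Its site on chromosome 16 from 74330577 to 74331076 also covered the start of AC009120.4 on the other strand, and begins 96 bp before the start of PSMD7. If the listed start is the RefSeq start, the site holds the ETS core of the stretch printed above and its GC box, which lies 94 bases before the start, but not its CCAAT box. PSMD6 had 6.16 in ChIP, the lowest ChIP value of the members' strongest sites, and 4.49 in input (1.67, FDR 0.000115). Its site lies from 285 to 784 bp inside the listed gene. The RefSeq start of PSMD6, whose promoter is printed, lies 513 bp inside the RefSeq gene, so the site would cover that start on the assumption named for PSMA1.

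PSMD13 had 6.44 in ChIP and 4.96 in input (log2 fold 1.48, FDR 0.000189), at a site that also covers the start of SIRT3, a mitochondrial deacetylase gene on the other strand. PSMD3 had the same log2 fold, 1.48, with 6.64 and 5.16 (FDR 4.42e-05). Its site ends 572 bp before the start, and its listed distance of 1071 bp kept it out of the count at starts. PSMD8 had a pair of neighbouring sites: the one over the start had 6.64 and 5.65 (0.99, FDR 0.0031), and the one from 161 to 660 bp inside had 6.85 and 5.46 (1.40, FDR 8.25e-05). PSMD12 had 6.46 and 5.29 (1.18, FDR 0.00173). PSMD11 and PSMD14, the deubiquitinase of the lid, had no site.

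Of the 3 non-ATPase subunits of the base counted here, 1 had a site. PSMD4, a ubiquitin receptor, had 6.71 in ChIP and 5.85 in input (log2 fold 0.86, FDR 0.00797) over its start, and the large scaffold subunits PSMD1 and PSMD2 had no site. Of the chaperones that assemble the base, PSMD5 had 7.22 and 5.82 (1.40, FDR 5.88e-06) and PSMD9 6.76 and 5.87 (0.89, FDR 0.00584), both over the start, and PSMD10 had none. The site of PSMD5 is the one with which the antisense RNA PSMD5-AS1 is paired, 17906 bp from that gene's own start, and without strand in ChIP it cannot be assigned to one of them.

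Of the 6 ATPase genes, 4 had a site and 2 of these had it at the start. PSMC3 had the highest ChIP concentration of all members, 7.46, but also the highest input, 6.19, which gave a log2 fold of 1.27 (FDR 5.2e-05). Its site, on chromosome 11 from 47447628 to 47448550, is wider than the others and reaches from 557 bp before to 365 bp after the start, so on the same assumption it covers the whole promoter stretch printed above, with its CCAAT box and 3 GC boxes. PSMC4 had 6.77 and 5.78 (0.99, FDR 0.00353) at a site from 165 bp before to 334 bp after its start. Which motifs of the PSMC4 stretch printed above lie in this site was not determined, as the listed and RefSeq starts were not matched across builds. PSMC2 had 6.35 and 5.10 (1.25, FDR 0.00106) at a site 3224 bp inside the gene, and PSMC6 6.21 and 5.21 (0.99, FDR 0.0094) at a site that ends 3388 bp before it. PSMC1 and PSMC5 had none.

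**Figure D3:**
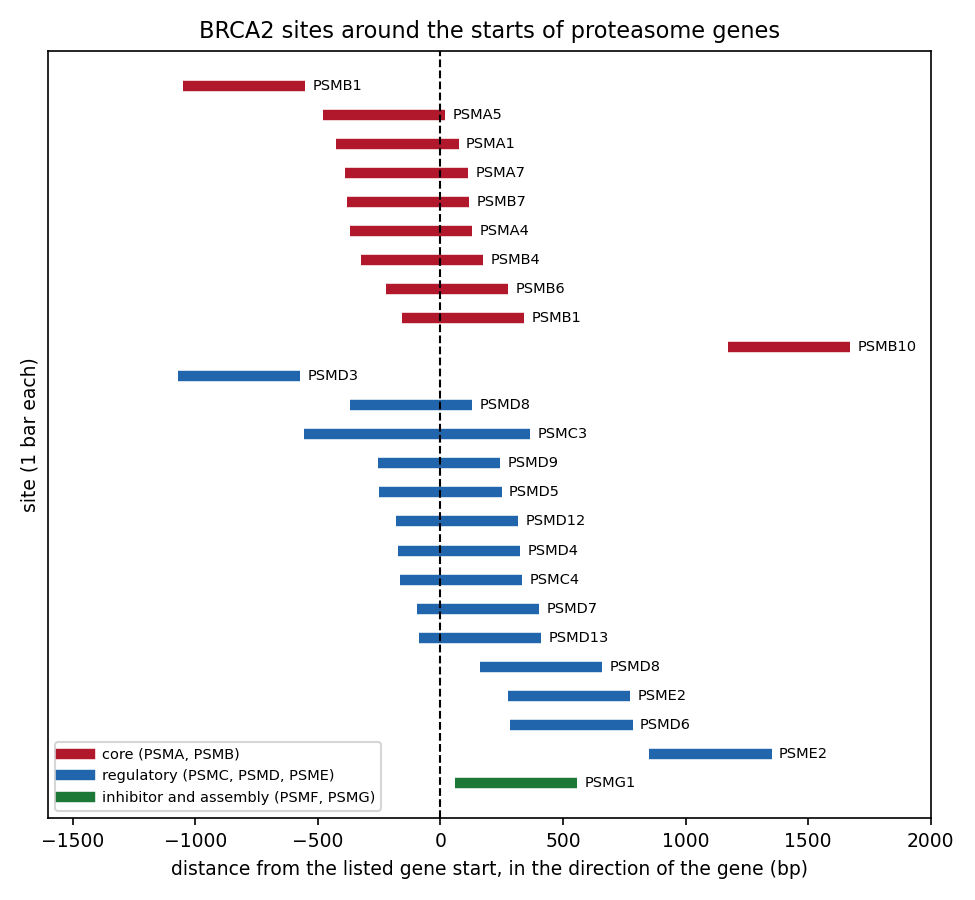
Position of 25 of the 33 sites of proteasome genes, in bp from the listed gene start in the direction of the gene (dashed line: start). Each bar is a site, and the 8 sites farther away are not drawn. Of the bars, 17 cross the start, and those of PSMD8 (second site), PSMD6, PSME2 and PSMG1 lie just inside the gene.

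Activator genes had sites at 2 of 4. PSME2, a subunit of the interferon-induced activator, had 2 sites on chromosome 14. That from 852 to 1351 bp inside the gene had 6.46 in ChIP and 4.84 in input (log2 fold 1.62, FDR 3.1e-05), and that from 276 to 775 bp had 6.72 and 5.53 (1.19, FDR 0.000838). The stronger one covered the start of RNF31, a gene of linear ubiquitin chain assembly on the other strand, and the other lay 112 bp inside RNF31. Whether either site reaches the PSME2 stretch printed above was not determined, as the listed and RefSeq starts were not matched across builds. PSME3, the nuclear activator subunit, had 6.77 and 5.48 (1.29, FDR 0.000209) at a site 8517 bp inside the gene, which covered the start of BECN1, an autophagy gene. PSME1 and PSME4 had no site.

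The inhibitor and assembly genes had 3 sites, and after PSMA7 the largest folds of the members were those of PSMG1 and PSMF1. PSMG1, an assembly chaperone of the alpha ring, had 6.86 in ChIP and 4.70 in input (log2 fold 2.16, 4.47-fold, FDR 2.17e-09), the smallest FDR of all members. The site, on chromosome 21 from 40555218 to 40555717, runs from 60 to 559 bp inside the gene and also lies 385 bp past the end of BRWD1. The RefSeq start of PSMG1 lies 63 bp inside the RefSeq gene. The listed and RefSeq starts of PSMG1 were not matched across builds. Which motifs of the PSMG1 stretch printed above lie in the site was therefore not determined. PSMF1 had 7.04 and 5.18 (1.86, FDR 2.14e-08) at a site 5005 bp inside the gene. RefSeq has an inner start of PSMF1 5339 bp inside it, which this site would cover on the assumption named for PSMA1. PSMG2 had 6.36 and 4.60 (1.76, FDR 1.9e-05) at a site 45003 bp inside the gene, which lies 964 bp upstream of CEP76, a centrosomal protein gene on the other strand. An inner RefSeq start of PSMG2 lies 44304 bp inside the gene, 699 bp before the site on the same assumption. PSMG3 and PSMG4 had no site. Among the strongest sites of the members, only those of PSMA7 and PSMD6 had lower input than those of PSMG1 and PSMG2.

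**Figure D4:**
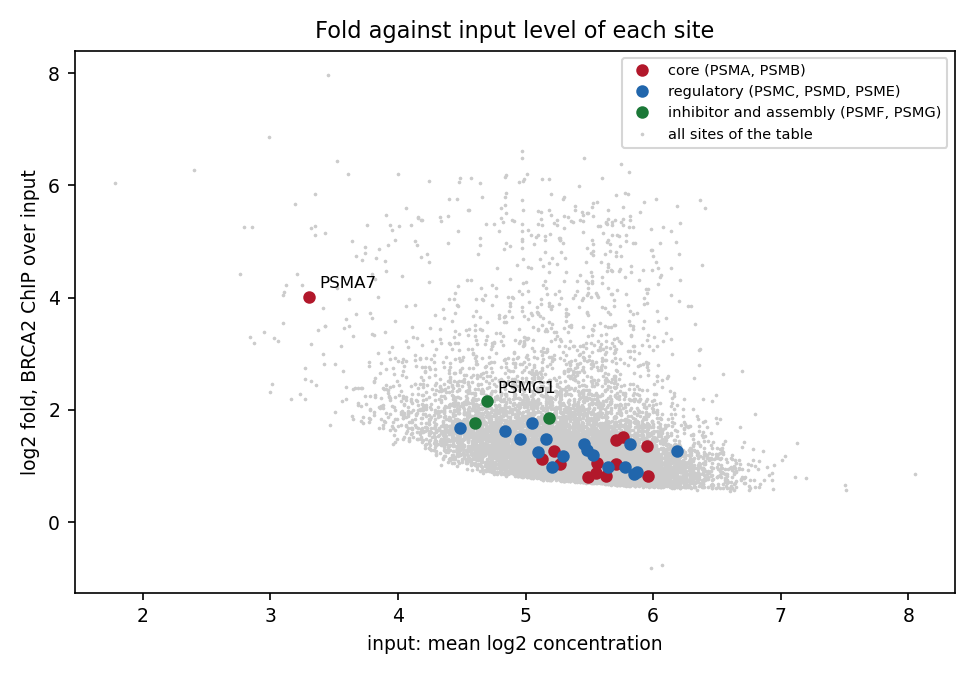
Log2 fold of BRCA2 ChIP over input against the input concentration (log2) for all 15131 sites of the table (grey) and the 33 sites of proteasome genes (coloured by class). Apart from PSMA7 at 4.02 and PSMG1 at 2.16, the members lie at log2 folds from 0.80 to 1.86, inside the dense part of the table.

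Sites of proteasome genes were paired with other genes about as often as sites over the whole table. Of the 33 sites, 16 (48.5%) were also paired with another gene, against 46.6% of all 15131 sites paired with more than 1 symbol. Of the 33, 8 covered the start of another gene, a count with no share over all sites here. At 4 sites (12.1%, against 4.2% of all sites, most of which lie away from starts) the start of the proteasome gene and of another gene were both covered: PSMA7 with SS18L1, PSMD13 with SIRT3, PSMD7 with AC009120.4 and PSMD9 with RP11-87C12.2. Of the 11 sites away from the proteasome gene's own start, 6 lay near the start of another gene, among them COPB1 for the second site of PSMA1 (6.24 in ChIP and 5.13 in input, log2 fold 1.12, FDR 0.00526), RNF31 for PSME2 and BECN1 for PSME3. The other 5 were near no listed start by the listed distance. Over the table, 5042 of the 15131 sites lay near a listed start, a gene's own start included, so the counts are not alike. Of the 5 sites near no start, that of PSMD3 ends 572 bp before the PSMD3 start. The PSMC2 site ends 624 bp before the start of CTA-276O3.4. These sites are paired with the proteasome gene by position only.

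Chromosomes 14 and 17 each held 4 sites of proteasome genes. On chromosome 14, where the input of sites is low in this table, 3 of 8 proteasome genes (37.5%) had a site (PSMA6, PSMC6 and PSME2). Of its 605 coding genes, 31.2% had one. On chromosome 17 it was 4 of 7 (57.1%), against 49.1% of 1169. The median input at the strongest site of a gene was 4.93 over the coding genes of chromosome 14 and 5.34 over all coding genes. The part of this difference in the missing calls of PSMA3, PSMB5, PSMB11, PSMC1 and PSME1, all on chromosome 14, was not tested.

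The proteasome-linked genes, a list of 27 other genes of this pathway, also had sites at many members. In the list, 19 (70.4%) had a site and 18 (66.7%) had one at the start, against 44.2% and 23.4% of coding genes. SEM1, the lid subunit that binds BRCA2, had 6.37 in ChIP and 4.97 in input (log2 fold 1.40, FDR 0.000321), over its start on chromosome 7 from 96338720 to 96339219, a fold equal to the median of 1.40 over the strongest sites of the PSMD genes. The largest fold was that of UBA1, the enzyme that activates ubiquitin, with 10.26 and 5.29 (4.97, FDR 1.92e-57) over its start.

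NFE2L2, a factor that acts through the antioxidant response element, had 4 sites, the strongest with 7.76 in ChIP and 5.33 in input (log2 fold 2.43, FDR 3.19e-14), 69968 bp inside its listed start. The site that counts as at its start had a log2 fold of 1.07 (FDR 0.00527), and one 129348 bp inside had 1.74 (FDR 9.55e-07). Inner starts of NFE2L2 were not examined. NFE2L1, the factor that raises proteasome gene expression when the proteasome is inhibited, had 0.97 (6.98 and 6.02, FDR 0.00333) within 1 kb of its start, and is named after its values were seen. DDI2, the protease that activates NFE2L1, had 1.96 (6.69 and 4.73, FDR 1.42e-07). ZFAND5, which binds the proteasome, had 2.12 (6.23 and 4.11, FDR 1.7e-06), and UBQLN4, a ubiquitin shuttle, 1.80 (7.02 and 5.22, FDR 1.05e-07). USP14, UBE3C, POMP, PAAF1, ECPAS, TXNL1, FBXO7 and NGLY1 had no site. The median log2 fold of the strongest site was 1.40 in this list.

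The symbols that the rule took beyond the proteasome itself had weak or distant sites. The 8 sites paired with pseudogenes had a median log2 fold of 0.815 (0.65 to 1.23), and 1 of the 8 had an FDR under 0.01. None of them covered a pseudogene, and the nearest, that of PSME2P2 on chromosome 13, lay 1573 bp away. PSMC3IP, the recombination factor, had 6.75 in ChIP and 5.79 in input (0.96, FDR 0.00435) over its start, and 1.20 (6.32 and 5.12, FDR 0.00145) at a site 9078 bp upstream, inside FAM134C.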

How the data were processed

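BRCA2 ChIP and input chromatin were sequenced from hTert-HME1 cells, 2 libraries each. Per the submitters' processing notes, the build was hg19 and the tools were DiffBind, MACS2, Picard 1.92, SAMtools, Bowtie 1.1.1 and cutadapt 1.8.1, with settings not given in the sources used here. Per the file headers, the authors deposited mean log2 concentrations per group, their log2 fold, an FDR (a q-value) and distances to genes. The fold lay within 0.01 of the difference of the concentrations at every site. The listed shortest distance equalled the rebuilt distance to the start in 100% of 6181 upstream rows, with starts counted from 1. A deposited list of symbols was not used.

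Rows were matched to coding genes by Entrez ID, then symbol, in RefSeq GRCh38.p14. A site was at a start when it covered it or its listed distance was within 1 kb. Promoter sequences matched 42 of the 48 genes. Every member with a site is named, as are the genes of the linked list with the 6 largest folds, of which 1 is not reported here; printed promoters are the 2 largest folds at starts per class. The members and lists were chosen with earlier results of these data known. No test beyond the authors' FDR was run, since no value per library exists here; counts stand beside all coding genes. Distances were tested on simulated data. Python 3.11.15, pandas 2.3.3, numpy 2.4.6 and matplotlib 3.10.9 were used.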

Additional observations from a re-analysis of the deposited data

How the results depend on the processing

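The number of proteasome genes with a site was 28 and lay between 22 (a log2 fold of at least 1, or pairs by nearest start only) and 26 (an FDR under 0.01) under the stricter settings, and 36 symbols were taken with pseudogenes and the others. Genes with a site at the start numbered 20, with 15 to 22 under the alternatives. A 3 kb window gave 22 (27.1% of coding genes) and the shortest distance 21 (24.4%). An FDR under 0.01 gave 18, a log2 fold of at least 1 gave 15, and nearest starts only gave 19. For these 3 settings the share of coding genes with a site at the start was not computed, so the counts have no background here. With nearest starts only, 32.7% of coding genes had a site. The median log2 fold of the strongest site, 1.325, was 1.38 at an FDR under 0.01, 1.435 at a log2 fold of at least 1, 1.27 by nearest start only, 1.27 with the site nearest to the start and, in an alternative chosen after seeing the data, 1.29 without PSMA7. No paired analysis was possible because the table holds group means, and no replicate could be left out for the same reason. A gene with no site had none up to the authors' FDR, which does not show absence of BRCA2.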
